A study of Mus musculus with 4 samples.

Results

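Dcxr encodes dicarbonyl and L-xylulose reductase, and 9 genes are described here: Dcxr and 8 genes of related carbonyl and sugar reductases and of the steps that border them, Akr1a4, Akr1b3, Sord, Xylb, Khk, Cbr1, Cbr3 and Cryl1. Dcxr was chosen by its measured rise in G85R motor neurons, so its difference between genotypes is given as a description with no test. The other 8 genes were selected as related reductases or bordering steps, with earlier results of these data known, to see whether they moved with Dcxr. Genes were found by symbol among the 27189 genes of the files, and each symbol had 1 entry. Of the 9 genes, 8 had a mean of at least 1 RPKM (reads scaled by transcript length and by the mapped reads of the library) over the 4 libraries and so were among the 11530 genes compared, while Akr1b3 was below that level.

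The RNA came from large motor neuron cell bodies, laser captured from the ventral horn of the spinal cord of mice on a mixed C57BL/6J x SJL/J background at 3 months of age. Wild-type libraries (n = 2 mice, strain 592) carried a transgene for wild-type human SOD1 fused to YFP, a fluorescent protein, and G85R libraries (n = 2 mice, strain 737) carried the same human genomic SOD1 fragment with the G85R mutation, which causes familial amyotrophic lateral sclerosis. Both groups were therefore transgenic, with the transgene under the human SOD1 promoter and so not restricted to motor neurons, and no nontransgenic animal was included. Each genotype was a single transgenic line, the G85R line was homozygous for an insertion on chromosome 4 and held many more transgene copies, and mutation, copy number and line cannot be told apart. Each library pooled 3000 to 4000 cell bodies of 1 mouse, and cells with large aggregates were left out of the capture in G85R sections.

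The glucuronate-xylulose pathway carries glucuronate, an acid of glucose, through gulonate, L-xylulose, xylitol and D-xylulose into the pentose phosphate pathway. Akr1a4 (aldehyde reductase) reduces glucuronate to gulonate, Cryl1 oxidizes gulonate, Dcxr reduces L-xylulose to xylitol with NADPH, Sord (sorbitol dehydrogenase) oxidizes xylitol or sorbitol, and Xylb phosphorylates D-xylulose. In the polyol pathway Akr1b3 (aldose reductase) makes sorbitol from glucose, Sord makes fructose from sorbitol, and Khk (ketohexokinase) phosphorylates fructose. Cbr1 and Cbr3 are carbonyl reductases that, like Dcxr, belong to the short-chain dehydrogenase family and reduce reactive carbonyls and quinones, while Akr1a4 and Akr1b3 are aldo-keto reductases.

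The study reports reads that map to a single place in the genome, but how reads with several matches entered the RPKM of a gene is not given in the sources used here. The sequences show for which genes this matters. The longest coding transcript of each gene (GENCODE vM1) was split into all windows of 75 bases, the read length, and each window was looked for elsewhere in the mouse genome (NCBIM37, the same build as mm9). The opening 75 coding bases of Akr1b3, which are shown because 3 other places hold them without a mismatch, were as follows, 5′ to 3′ on the transcript strand.
Akr1b3, transcript bases 93 to 167: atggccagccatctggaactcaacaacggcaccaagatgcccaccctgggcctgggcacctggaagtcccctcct
The identical stretches lay at chr1:55501794-55501868, chr12:13462702-13462776 and chr11:40487284-40487358, all on the minus strand. They were part of intron-free copies of bases 55 to 1406 of the transcript with 99.7%, 99.5% and 99.0% identity. In all, 95.9% of the 1332 windows of Akr1b3, and all of its coding windows, had a copy elsewhere within 2 mismatches, and 79.1% of the windows had an identical one.

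Sord had a single near copy, on chromosome 1, and the opening coding bases of both are shown because they differ by 1 base, in capitals.
Sord, transcript bases 145 to 219: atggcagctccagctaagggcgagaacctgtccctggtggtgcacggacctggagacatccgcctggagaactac
Sord copy, chr1:155467729-155467803, minus strand: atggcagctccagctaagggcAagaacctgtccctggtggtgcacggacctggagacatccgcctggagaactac
The copy matched 1259 aligned bases with 99.4% identity, and 48.8% of the 2278 windows of Sord (92.6% of its coding windows) had a counterpart within 2 mismatches, which left 1166 windows, mostly outside the coding sequence, without one. For Cbr1 the share was 26.6% of windows. Dcxr, Akr1a4, Xylb, Khk, Cbr3 and Cryl1 had no such window (0 of 818 for Dcxr).

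**Figure D1:**
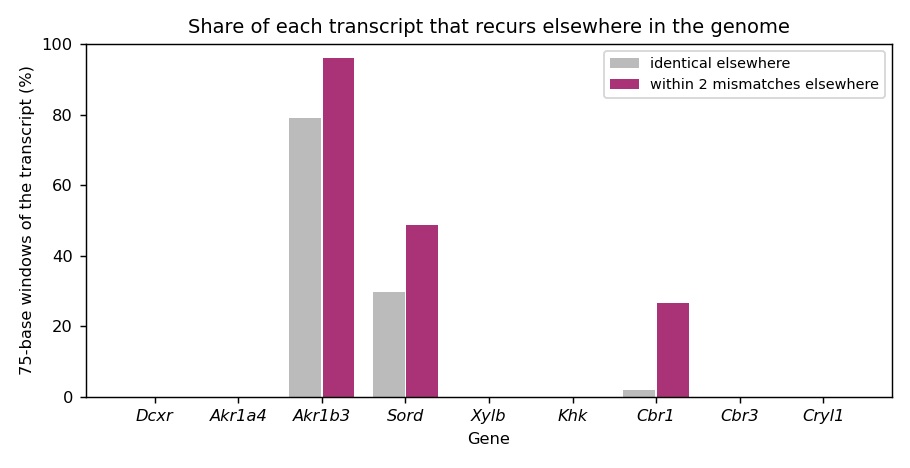
Percent of all 75-base windows of the longest coding transcript of each gene that occur elsewhere in NCBIM37, identical (grey) or within 2 mismatches (purple). Akr1b3 reached 95.9% and Sord 48.8% within 2 mismatches, while Dcxr and 5 other genes were at 0.

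The nearest relative of Dcxr is its neighbor Cbr2, also a carbonyl reductase, and 75 bases from the start of their longest alignment are shown because it bears on whether reads could be shared. Capitals mark the bases of Cbr2 that differ from Dcxr, 16 of 75.
Dcxr, transcript bases 201 to 275: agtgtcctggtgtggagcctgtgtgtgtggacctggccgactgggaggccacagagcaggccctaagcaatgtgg
Cbr2, chr11:120592141-120592215, minus strand: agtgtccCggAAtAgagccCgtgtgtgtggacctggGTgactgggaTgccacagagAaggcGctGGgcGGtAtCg
Cbr1 and Cbr3 stand side by side on chromosome 16, and their opening coding bases differed at 12 of 75 positions, in capitals for Cbr3.
Cbr1, transcript bases 130 to 204: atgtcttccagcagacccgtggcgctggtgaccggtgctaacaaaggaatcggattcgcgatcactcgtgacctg
Cbr3, chr16:93683570-93683644, plus strand: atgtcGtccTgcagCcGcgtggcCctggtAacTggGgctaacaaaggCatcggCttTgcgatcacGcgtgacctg
The study also designed PCR primers for Dcxr, whose positions show which part of the transcript they read. Both occurred once in the transcript, at bases 38 to 59 and 134 to 153, for a product of 116 bases across an exon junction, and their measurements were not analysed here.
Dcxr forward primer: ccaggctcaagcaccatggacc
Dcxr reverse primer: acctgtgcaccagccgcctt

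Dcxr (Entrez Gene 67880) lies on the minus strand of chromosome 11, at chr11:120586713-120588595 on NCBIM37. Its level was 16.3 and 18.1 RPKM in the wild-type libraries and 55.0 and 63.7 RPKM in the G85R libraries. The genotypes were far apart and the replicates close: the means were 17.2 ± 1.27 and 59.4 ± 6.14 RPKM (SD, n = 2 each), a ratio of 3.46. On the log2(RPKM + 0.1) scale, which is used for all differences below, G85R minus wild-type was 1.78, and 29 of the 11530 genes, Dcxr included, had a difference at least that high. An estimated 587 and 692 reads stood behind the wild-type values and 1811 and 2227 behind those of G85R. No annotated gene overlaps Dcxr.

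Neither enzyme before Dcxr in the glucuronate-xylulose pathway, Akr1a4 or Cryl1, passed the test. Akr1a4 (Entrez Gene 58810, chr4:116309115-116324285, minus strand) was the most abundant of the 9 genes, with 312 and 298 RPKM in wild-type and 350 and 336 RPKM in G85R libraries. Both G85R values lay above both wild-type values, but the difference of 0.17 (95% interval -0.05 to 0.38) did not pass the test (limma, adjusted p = 0.574). Akr1a4 is on chromosome 4, as is the transgene insertion of the G85R line, and the distance between them is not given in the sources used here. Cryl1 (Entrez Gene 68631, chr14:57893871-58017333, minus strand), the gulonate dehydrogenase, had 9.92 and 9.68 RPKM in wild-type and 6.03 and 8.00 RPKM in G85R libraries. Its G85R values were the lower ones in both libraries, with a difference of -0.49 (95% interval -0.87 to -0.11), and it did not pass after adjustment over all genes (limma, unadjusted p = 0.0182, adjusted p = 0.324). Without G85R replicate 1 the difference of Cryl1 was -0.29, and without G85R replicate 2 it was -0.69.

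Of the enzymes after Dcxr, Sord came nearest to it. Sord (Entrez Gene 20322, chr2:122060485-122091076, plus strand) had 7.75 and 6.53 RPKM in wild-type and 13.1 and 12.7 RPKM in G85R libraries, without overlap. The ratio of the means was 1.81 and the difference 0.85 ± 0.13 (SE; 95% interval 0.54 to 1.16), a size that 2.14% of all tested genes reached in either direction. Sord did not pass the threshold of 0.05 (limma, unadjusted p = 0.000372, adjusted p = 0.0542) but lay close to it, and its call depended on the settings: with robust variance estimates its adjusted p was 0.0344, without wild-type replicate 1 it was 0.0306, and without G85R replicate 2 it was 0.0487. Over all limma alternatives its adjusted p ranged from 0.00231 to 0.415. The log-linear Poisson test did not call Sord (unadjusted p = 0.0839). That test takes rounded RPKM as counts, so its outcome depends on this unit and not on the reads behind a gene. As shown above, 48.8% of the windows of Sord recur on chromosome 1, and the part of that copy in the difference was not tested. Xylb (Entrez Gene 102448, chr9:119266499-119302438, plus strand), the kinase that follows, had 3.89 and 4.14 RPKM in wild-type and 5.00 and 3.99 RPKM in G85R libraries. These values overlapped, the difference was 0.15 (limma, adjusted p = 0.828), and without G85R replicate 1 it was -0.008.

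**Figure D2:**
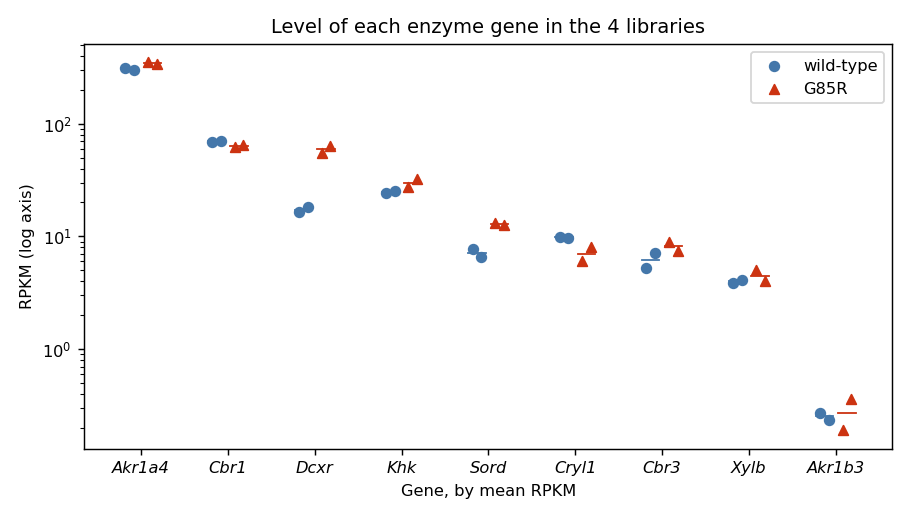
RPKM (log axis) of the 9 genes in the 2 wild-type (blue circles) and 2 G85R (red triangles) libraries, ordered by mean, with short lines at the genotype means. Dcxr stood at 16.3 and 18.1 RPKM in wild-type and at 55.0 and 63.7 RPKM in G85R libraries, while the points of Akr1a4, Cbr1, Khk and Xylb lay close together.

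In the polyol branch, Akr1b3 (Entrez Gene 11677, chr6:34253934-34267497, minus strand) was listed at 0.273 and 0.233 RPKM in wild-type and at 0.190 and 0.358 RPKM in G85R libraries, from an estimated 7 to 14 reads each. The genotypes overlapped. Reads from the 79.1% of its windows that recur unchanged have no single place in the genome, and their part in the level was not tested, so that the values give no measure of aldose reductase mRNA in these cells. A noncoding gene on the opposite strand, Gm14546, also spans Akr1b3. Khk (Entrez Gene 16548, chr5:31223929-31233619, plus strand) had 24.1 and 25.3 RPKM in wild-type and 27.4 and 32.1 RPKM in G85R libraries. Both G85R values were higher, with a difference of 0.26 (95% interval -0.02 to 0.55; limma, adjusted p = 0.493). Without G85R replicate 2 the difference of Khk was 0.15, and without G85R replicate 1 it was 0.38.

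The carbonyl reductases Cbr1 and Cbr3 had differences of opposite sign. Cbr1 (Entrez Gene 12408, chr16:93608082-93610750, plus strand) had 69.1 and 70.1 RPKM in wild-type and 61.8 and 64.1 RPKM in G85R libraries, a difference of -0.15 (95% interval -0.37 to 0.08; limma, adjusted p = 0.669). Cbr3 (Entrez Gene 109857, chr16:93683460-93691235, plus strand) had 5.21 and 7.09 RPKM in wild-type and 8.89 and 7.46 RPKM in G85R libraries, a difference of 0.42 (95% interval -0.01 to 0.85; limma, adjusted p = 0.468), which was 0.20 without wild-type replicate 1 and 0.64 without wild-type replicate 2. The G85R libraries thus lay below the wild-type ones for Cbr1 and above them for Cbr3, and neither gene passed the test. Cbr2, too low to be tested, was at 0 in wild-type replicates 1 and 2 and at 0.0771 and 0.109 RPKM in those of G85R.

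Of the 7 other genes that were tested, 0 passed at an adjusted p of 0.05 in limma, where 0.642% of all tested genes did. At an unadjusted p under 0.05 the count was 2 (Sord and Cryl1), with 11.0% of all tested genes at that level. The log-linear Poisson test called 0 of the 8 other genes, against 62 of all 27189 genes. In it 1 of 8 (Akr1a4, the gene of highest RPKM) had an unadjusted p under 0.05, and the share of all genes at that level was not computed. The genotypes did not overlap for 6 of the 7 genes, 4 with G85R higher and 2 with G85R lower. Over all tested genes 41.2% did not overlap, 17.3% with G85R higher and 23.9% with G85R lower. The median difference of the 7 genes was 0.167, and that of all tested genes was -0.0214. The interval of Sord ended at 1.16, and those of Akr1a4, Khk, Cbr1, Cbr3, Xylb and Cryl1 ended at 0.85 or lower. Dcxr, at 1.78, was chosen for its rise. Only 29 of the 11530 tested genes, Dcxr included, rose as much, so a difference below that of Dcxr is shared by nearly all genes. Of all tested genes 45.3% had the higher mean in G85R.

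**Figure D3:**
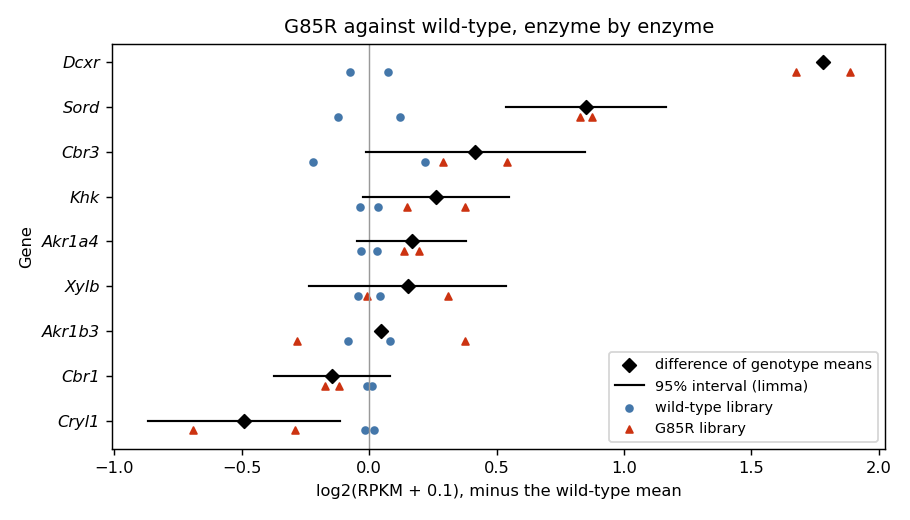
G85R minus wild-type on the log2(RPKM + 0.1) scale for the 9 genes (black diamonds), with 95% intervals from limma for the 7 tested genes other than Dcxr, and each library relative to the wild-type mean (blue circles wild-type, red triangles G85R). Dcxr was at 1.78, the interval of Sord ran from 0.54 to 1.16, that of Cryl1 from -0.87 to -0.11, and the other 5 intervals included 0; no interval was drawn for Dcxr, which was chosen by this difference, or for Akr1b3, which was not tested.

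RPKM is scaled by transcript length, so levels can be set side by side between genes, except that the recurring windows of Akr1b3 (95.9%), Sord (48.8%) and Cbr1 (26.6%) limit what their places say, and the place of Akr1b3 is no measure of its mRNA. By the mean over the 4 libraries the order was Akr1a4 (324 RPKM), Cbr1 (66.2), Dcxr (38.3), Khk (27.2), Sord (10.0), Cryl1 (8.41), Cbr3 (7.16), Xylb (4.25) and Akr1b3 (0.263). The ranges of Cbr1 and Dcxr, Dcxr and Khk, Sord and Cryl1, and Cryl1 and Cbr3 overlapped, and those of the other neighbors in this order did not. Dcxr changed its place between the genotypes: in wild-type libraries it was below Khk, and in G85R libraries it was above Khk and reached the level of Cbr1. Dcxr made up 3.63% and 4.11% of the summed RPKM of the 9 genes in wild-type libraries and 10.4% and 12.1% in G85R libraries, while Akr1a4 made up 63.5% to 69.6% in every library. The sum itself was 449 and 439 RPKM in wild-type and 527 and 528 RPKM in G85R libraries.

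The wider pathway was followed in 6 lists of genes, 119 genes in all besides the 9, of which 84 were tested. Of these 84 genes, 0 were called by limma, where 0.642% of all tested genes were. In limma 12 (14.3%) had an unadjusted p under 0.05, against 11.0% of all tested genes. The log-linear Poisson test called 0 of the 119 genes, against 62 of all 27189, and 2 of 119 had an unadjusted p under 0.05 in it. The genotypes did not overlap for 37 of the 84 genes (44.0%, against 41.2% of all tested genes), 39 had the higher mean in G85R (45.3% of all tested genes did), and the median difference was -0.009, against -0.0214 over all tested genes. None of the 84 genes had a difference above that of Dcxr, which only 29 of the 11530 tested genes reached, Dcxr included. Of the 84 genes, 1 (Dhrs3) had a larger absolute difference than Sord.

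In the list for the rest of the glucuronate-xylulose pathway, 5 of 10 tested genes had the higher mean in G85R and the median difference was 0.02. The list also held the aldehyde dehydrogenases Aldh1b1, Aldh2, Aldh3a2, Aldh7a1 and Aldh9a1, which are not among the steps described above. Of the genes with the higher mean, all but Gusb were aldehyde dehydrogenases. Ugp2, which makes UDP-glucose, was the most abundant, with 59.4 and 51.7 RPKM in wild-type and 50.5 and 52.2 RPKM in G85R libraries. Aldh2, the mitochondrial aldehyde dehydrogenase, came next with 26.1 and 25.0 against 30.2 and 31.0 RPKM (difference 0.26; limma, adjusted p = 0.424). The largest differences in this list were those of the aldehyde dehydrogenases Aldh1b1 (0.30; limma, adjusted p = 0.515) and Aldh7a1 (0.28; limma, adjusted p = 0.770). Miox, which supplies glucuronate from inositol, and Gulo, the last step of vitamin C synthesis, were listed at 0 in all 4 libraries.

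For fructose and polyol metabolism 4 of 7 tested genes had the higher mean in G85R, with a median of 0.01. The phosphomannomutases Pmm1 (0.20) and Pmm2 (0.23) had the largest differences, and Pmm1 and Mpi, mannose phosphate isomerase, had the highest levels. In the pentose phosphate pathway and NADPH supply 10 of 15 had the higher mean in G85R, with a median of 0.11. Tkt (transketolase), which takes up the xylulose phosphate that Xylb makes, had 80.3 and 88.3 RPKM in wild-type and 107 and 98.9 RPKM in G85R libraries. Its values did not overlap, and its difference of 0.29 did not pass the test (limma, adjusted p = 0.380). Taldo1 (transaldolase) differed by 0.16, and the largest differences were -0.60 for Rbks, ribokinase, and 0.47 for Pgm1, a phosphoglucomutase (limma, adjusted p = 0.478 and 0.416).

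The enzyme families of Dcxr, Akr1a4 and Cbr1 held differences in both directions. Among other aldo-keto reductases 2 of 5 tested genes had the higher mean in G85R. The potassium channel beta subunits Kcnab2 (a difference of -0.004) and Kcnab1 (-0.25) were the most abundant, and Akr1e1 (0.42) and Kcnab3 (0.28) had the largest differences. Most of the Akr1c genes in this list were at or near 0. Among other short-chain carbonyl and retinol reductases 9 of 28 had the higher mean in G85R, with a median of -0.08. Qdpr, which regenerates tetrahydrobiopterin, and Hsd17b12 had the highest levels, with differences of 0.07 and -0.01. Dhrs3, a retinal reductase, had 7.85 and 9.27 RPKM in wild-type and 5.32 and 3.68 RPKM in G85R libraries, a difference of -0.93 (limma, adjusted p = 0.127), opposite in direction to Dcxr, and Hpgd differed by 0.42 at a level near 1 RPKM. Among other genes for detoxification of carbonyls and quinones 9 of 19 had the higher mean in G85R, with a median of -0.01. Park7 had the highest level (a difference of -0.01), Hagh, a glyoxalase, had 87.1 and 90.8 against 113 and 108 RPKM (0.31; limma, adjusted p = 0.291), and Aldh4a1 (0.65) and Nqo1, a quinone reductase (-0.47), differed most without passing (limma, adjusted p = 0.412 and 0.302).

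**Figure D4:**
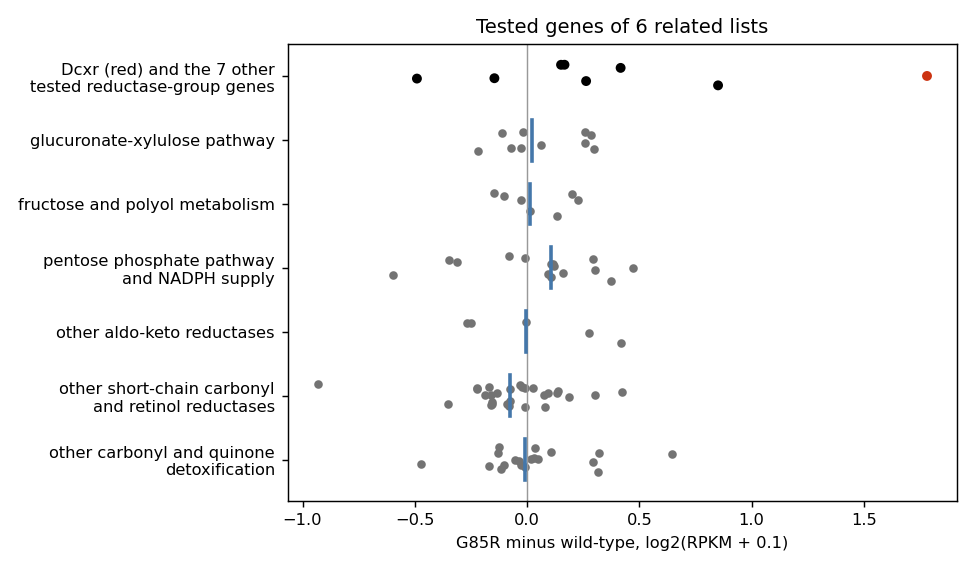
G85R minus wild-type on the log2(RPKM + 0.1) scale for each tested gene, for Dcxr (red) with the 7 other tested genes (black) and for the 6 lists (grey points, blue line at the median), with random vertical offsets. The 84 listed genes lay between -0.93 (Dhrs3) and 0.65 (Aldh4a1), all below Dcxr at 1.78.

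Around Dcxr on chromosome 11, 43 genes could be placed within 500 kb and 29 of them were tested. Of these, 2 were called, 1 in each direction, where 0.642% of all tested genes were called, and 8 had an unadjusted p under 0.05 in limma, where 11.0% of all tested genes did. Arl16, a small GTPase 257791 bases from Dcxr, had 53.0 and 51.8 RPKM in wild-type and 17.5 and 20.3 RPKM in G85R libraries, a fall of 1.47 (limma, adjusted p = 0.00325). 1810049H13Rik, close to Arl16, had 6.21 and 6.32 against 11.5 and 10.8 RPKM, a rise of 0.82 (limma, adjusted p = 0.0466). The genotypes did not overlap for 18 of the 29 genes, against 41.2% of all tested genes, and their median difference was 0.03.

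The nearest tested genes on each side of Dcxr were both higher in the G85R libraries without being called. Rac3, which ends 1429 bases from Dcxr on the opposite strand, had 23.9 and 25.2 RPKM in wild-type and 33.8 and 35.9 RPKM in G85R libraries (difference 0.50; limma, adjusted p = 0.125). Rfng, a glycosyltransferase of Notch signaling 53464 bases away on the other side, had 13.4 and 16.3 against 22.9 and 22.3 RPKM (difference 0.60; limma, adjusted p = 0.129). Their differences were about as large as each other. Both were smaller than that of Dcxr, which only 29 of the 11530 tested genes reached, Dcxr included.

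**Figure D5:**
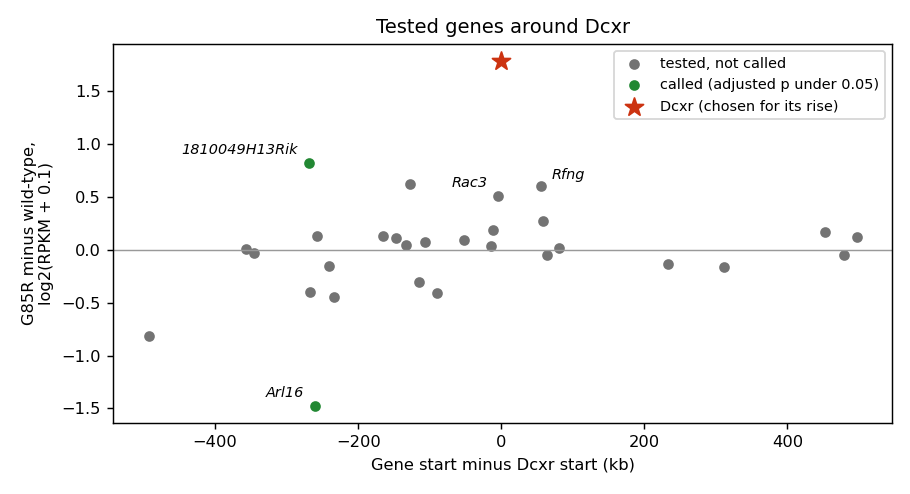
G85R minus wild-type on the log2(RPKM + 0.1) scale for the 29 tested genes within 500 kb of Dcxr, by distance between gene starts in kb (green, called by limma; grey, not called; red star, Dcxr). Arl16 at -1.47 and 1810049H13Rik at 0.82 were called, and Rac3 and Rfng, next to Dcxr, were at 0.50 and 0.60.

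The 5 tested genes whose centered log2 profile over the 4 libraries was closest to that of Dcxr, by Euclidean distance, were B2m (0.05), Cyp39a1 (0.20), Hspa1b (0.23), Hbb-b1 (0.25, for 1 of its entries) and Ell3 (0.28). B2m, the light chain of MHC class I molecules, had 17.7 and 20.0 RPKM in wild-type and 58.4 and 70.8 RPKM in G85R libraries, nearly the values of Dcxr. B2m lies 81665 bases from Sord on chromosome 2, and it was the only gene called among the 10 tested genes within 500 kb of Sord. By the same distance Sord was at place 55, at 0.99, Cbr3 at place 422 and Khk at place 770, so that none of the other members was among the closest. With 4 libraries, such a likeness rests mainly on the difference between genotypes.

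As a check of the captured cells, Chat, which makes acetylcholine, had 49.6 to 81.2 RPKM, and the 6 motor neuron markers were all present. Of these 6 markers 1 had the higher mean in G85R, with a median difference of -0.21 and 0 called. Their summed level was 1370 and 1642 RPKM in wild-type and 1192 and 1452 RPKM in G85R libraries. Transcripts of other cells were also present. All 7 tested astrocyte markers and all 6 tested microglia markers had the higher mean in G85R, with medians of 0.28 and 0.41 and 0 called. Their summed level was 449 and 455 RPKM in wild-type and 625 and 536 RPKM in G85R libraries for astrocytes, and 35.2 and 38.3 against 62.2 and 41.1 RPKM for microglia. Gfap had 11.5 and 17.1 RPKM in wild-type and 91.9 and 28.4 RPKM in G85R libraries, and C1qa 3.29 and 3.24 against 11.0 and 4.14 RPKM. Gfap and C1qa were thus highest in G85R replicate 1. Between the G85R libraries, Akr1a4, Sord, Xylb and Cbr3 were also higher in replicate 1. Dcxr, Akr1b3, Khk, Cbr1 and Cryl1 were higher in replicate 2. Of 7 oligodendrocyte markers 4 had the higher mean in G85R (Mbp 302 and 322 against 412 and 334 RPKM). Their sums were 854 to 905 RPKM in wild-type and 832 to 1080 RPKM in G85R libraries. Of the 5 endothelial markers 3 were tested, and 2 of these had the higher mean in G85R, with a median difference of 0.099. Cldn5, the third, was lower in G85R (5.25 and 6.81 against 4.24 and 4.71 RPKM). The sums over all 5 endothelial markers were 10.9 to 11.2 against 9.45 to 9.62 RPKM. Hbb-b1 of red blood cells had 1.75 and 2.00 RPKM in wild-type and 10.7 and 10.2 RPKM in G85R libraries and was called (limma, adjusted p = 0.00174); the summed level of both red cell markers found was 1.82 to 2.10 against 10.8 to 11.4 RPKM. The part of glial or blood RNA in the differences of Dcxr, Sord and the other members was not tested, and in such pooled RNA more cells of a type and more RNA per cell cannot be told apart. The mouse Sod1 entry (96.3 to 150 RPKM) does not check the genotypes, because the transgene is human.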

How the data were processed

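Motor neuron RNA was sequenced as single-end reads of 75 bases in 4 libraries. The authors mapped reads with Bowtie 0.12.3 to mm9 and splice junctions and quantified UCSC gene clusters with Cufflinks; the deposited values are RPKM, 1 set as calculated and 1 set with a read added for each gene. Subtracting the sets gave the RPKM of 1 read (median over genes 0.0195 to 0.0226), and dividing by it gave 21560318 to 25186594 estimated reads per library. As Cufflinks divides reads between isoforms, these are not counts, and no counting intervals were made.

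Genotypes were compared with limma 3.58.1 (lmFit, eBayes with trend; R 4.3.3) on log2(RPKM + 0.1) over 11530 genes (mean RPKM 1 or higher), with Benjamini-Hochberg adjustment over them and a threshold of 0.05. Since the pseudocount shrinks differences of low genes, those of genes near 1 RPKM are understated. An exact permutation test of 2 against 2 cannot go below p = 0.333 and was not used. On simulated data with 200 of 11530 genes changed 4-fold, limma called 98% of them. Smaller changes, such as those of the tested members other than Dcxr, were not simulated, so the 98% does not apply to them. Annotation and sequences were from NCBIM37 and GENCODE vM1, on which 17346 genes were placed, and windows were searched with blastn 2.17.0. Primer sequences were taken from the study's primer list. Python 3.11.15, pandas 2.3.3 and scipy 1.17.1 were used.

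The members and lists were chosen with earlier results of these data known. Named were all 9 genes, of each list the called genes, the 2 of highest level and the 2 of largest difference, around Dcxr the nearest tested gene on each side and the called genes, and the 5 closest profiles. Cell type markers were named by their defining genes. Gulo, Miox, Cbr2 and the search for copies were added after values had been seen. Alternatives were pseudocounts of 1 and 0.01, other minimum levels (0.1, 5 or none), rescaling, quantile normalization, the values with 1 read added, a replicate block, eBayes without trend or robust, each library left out, the log-linear Poisson test on rounded RPKM with 1 read added over all 27189 genes, and summing all entries of a symbol, which changed nothing because each member has 1.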

Additional observations from a re-analysis of the deposited data

How the results depend on the processing

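The difference of Dcxr ran from 1.68 to 1.89 over 17 alternatives, and no direction of Akr1a4, Sord, Khk, Cbr1, Cbr3 or Cryl1 turned in any alternative. Xylb turned to -0.0082 without G85R replicate 1 and was 0.31 without G85R replicate 2. Of the other 8 members 1 (Sord) was called with robust eBayes and with the replicate block, and 0 to 1 with a library left out. In the lists 1 gene was called with the replicate block (Dhrs3, -0.93, adjusted p = 0.0115), and 0 to 1 with a library left out: Aldh4a1 (1.04) without wild-type replicate 1, Dhrs3 (-1.19) without G85R replicate 1 and Aldh1a1 (-0.92) without G85R replicate 2. The other settings called none of them. Of all tested genes 74 were called, against 17 at a minimum mean RPKM of 5, 112 with no filter, 39 with quantile normalization, 49 without the trend and 78 to 188 with a library left out, 188 of them without G85R replicate 2. The cause of these changes was not tested.

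With the replicate block 527 genes were called and Sord had an adjusted p of 0.00231 in limma. The labels give the libraries only a number. The paper plots G85R to wild-type ratios for pairs of replicates, and how these pairs were formed is not given in the sources used here. The difference between replicates 1 and 2 had a correlation of 0.22 across tested genes between the genotypes. With 2 pairs this cannot decide whether the libraries were paired. A genotype with 1 library left was assumed to vary like the other. With 2 mice per genotype the intervals are wide, and Akr1b3 could not be judged at 7 to 14 reads per library.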

Other observations

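Genes within 500 kb of the other members were also counted. Of 16 tested genes around Akr1a4, 5 around Akr1b3, 5 around Xylb, 22 around Khk, 3 around Cbr1 and 11 around Cryl1, 0 were called by limma, with 1, 0, 0, 4, 0 and 1 at an unadjusted p under 0.05 (against 11.0% of all tested genes), and 8, 2, 1, 11, 2 and 3 without overlap of the genotypes (against 41.2% of all tested genes). Around Sord 1 of 10 was called (B2m, a difference of 1.77; limma, adjusted p = 0.00256), with 4 at an unadjusted p under 0.05 and 7 without overlap. The largest difference around Khk was that of Abhd1 (1.12), which was not called. The median absolute difference over all tested genes was 0.124. Around a member it was 0.21 for Sord, 0.15 for Dcxr and Khk, and 0.13 for Akr1a4, Cbr1 and Cbr3. It was 0.10 for Akr1b3, 0.07 for Cryl1 and 0.05 for Xylb. These counts were chosen after the values had been seen, and no test compared them.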
